A study of Homo sapiens with 4 samples.

Results

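Expression of MYC and of the genes that build ribosomes was examined in NK-92 cells, a line of human natural killer (NK) cells grown with interleukin 2 (IL-2). The set holds 40 genes, chosen by symbol from 4 areas (MYC and its partners, nucleolar rRNA processing, RNA polymerase I, and polyamine or nucleotide synthesis), out of 61860 genes in the count table. All 40 were found by symbol and joined to the counts by Ensembl identifier. All 40 also passed the filter on low counts, along with 17452 other genes, so 17492 genes were tested.

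MYC is a transcription factor that binds DNA as a pair with MAX, and MXD proteins such as MXD1 compete for MAX and repress the same kind of sites. Among the classical MYC targets are genes for ribosome production. RNA polymerase I copies the rRNA precursor in the nucleolus, small nucleolar ribonucleoproteins (snoRNPs) modify it, and large protein assemblies then cut it and fold it into the small and large ribosomal subunits. OGT, the gene edited here, encodes the enzyme that attaches the sugar O-GlcNAc to proteins of the nucleus and cytoplasm, MYC among them.

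The edited line, ΔOGT-ISS, lacks an intronic splicing silencer of OGT, and the reference is the wild-type (WT) NK-92 line. Recombinant human IL-2 was part of the growth medium of both lines. For each line, 1 library was made from cells given IL-2 24 h before RNA extraction and 1 from cells given it 48 h before, which makes 4 libraries in all. The titles name IL-2 for the 24 h libraries alone, whereas the treatment labels give it to all 4, and the labels were followed. Whether ΔOGT-ISS is a single clone is not given in the sources used here. Only 1 edited line was measured, so the edit and any other difference between the lines cannot be told apart. The labels do not describe the libraries as separate cultures. With 1 library per line and time, the spread behind the p-values and SEs of the main fit is not a spread of replicates. It is how far the line difference of a gene changes between the IL-2 times, with information shared across genes, and it may be technical.

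The RNA was depleted of rRNA before library preparation, so messenger RNAs and many non-coding RNAs are in the counts. The 24 h libraries held 28576566 counts (ΔOGT-ISS) and 24809269 counts (WT), and the 48 h libraries held 11305599 (ΔOGT-ISS) and 10889986 (WT). Depth therefore differed between the IL-2 times more than between the lines. The 13 NK marker genes examined had counts in every library, though CD7 had only 7 in each 48 h library, against 331 in ΔOGT-ISS and 251 in WT at 24 h. The 13 summed to 3719 and 5381 CPM (normalized counts scaled to library size) in ΔOGT-ISS and WT at 24 h. At 48 h they summed to 3087 and 3398 CPM in ΔOGT-ISS and WT. OGT itself was at 384 CPM in ΔOGT-ISS against 449 CPM in WT at 24 h, and at 399 CPM in ΔOGT-ISS against 446 CPM in WT at 48 h. These counts over the whole gene do not check a deletion inside an intron. By line CD2 alone of the NK markers passed the test described below (it fell), beside 0.463% of all genes tested. With DESeq2, another test, CD2 and NCR3 passed, beside 1.73% of all genes. By IL-2 time 7 of the 13 rose at 24 h, beside 15.0% of all genes tested. With the offsets for GC content and length described below, 3 of the 13 rose, beside 5.77% of all genes. Of 7 myeloid markers, CD14, CD68 and LYZ had at most 7 counts in any library, but the list summed to 47.7 CPM in ΔOGT-ISS against 316 CPM in WT at 24 h and to 611 CPM in ΔOGT-ISS against 827 CPM in WT at 48 h, with S100A9 the most abundant of the 7 in every library. Of 7 T cell markers, CD3E was at 187 to 316 CPM, TRAC at 19.9 to 24.0 CPM and the other 5 below 2 CPM in every library. Of 5 B cell markers, PAX5 was at 52.0 to 80.8 CPM and the other 4 below 2 CPM. By line 0 of the myeloid, T cell and B cell markers passed the test described below, and DESeq2 called S100A8. By IL-2 time S100A8 and S100A9 fell at 24 h and CD3E and CD79A rose, beside 10.9% of all genes that fell and 15.0% that rose. With the offsets, S100A8 and S100A9 still fell and CD3E and CD79A did not pass, beside 8.61% of all genes that fell and 5.77% that rose. The part of these markers in the results below was not tested, and in RNA from whole cultures a change in the share of cells and a change per cell cannot be told apart. The scaling used TMM factors, which assume that most genes do not change.

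The E-box CACGTG, which reads the same on both strands, is the site that MYC-MAX pairs prefer, and the stretches around it are shown because they bear on which genes of the set carry it near their start. RefSeq promoter windows (GRCh38.p14, from 250 bases before to 50 bases after each start, 300 bases in all) were at hand for 33 of the 40 genes. The letters CACGTG were present in a window of 13 of these 33 genes (39.4%), against 2396 of 27305 genes with a window (8.77%). The 27305 are all genes with a window, tested here or not, and no share was taken over the tested genes alone. The 13 genes were FBL, GAR1, GNL3, LYAR, NOP14, NOP2, ODC1, PES1, RRP9, SRM, UTP20, UTP4 and WDR43. A match of letters is a description of the sequence, not evidence of binding. Of these genes, 5, written below from 5′ to 3′ on the strand of the gene with the E-box in capitals, also passed the test between IL-2 times described further on.
RRP9 (chr3:51941892-51941921, minus strand): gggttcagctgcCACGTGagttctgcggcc
FBL (chr19:39846356-39846385, minus strand): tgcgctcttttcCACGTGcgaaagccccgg
LYAR (chr4:4290068-4290097, minus strand): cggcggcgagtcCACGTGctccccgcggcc
UTP20 (chr12:101280083-101280112, plus strand): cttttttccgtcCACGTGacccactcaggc
ODC1 (chr2:10447990-10448053, minus strand): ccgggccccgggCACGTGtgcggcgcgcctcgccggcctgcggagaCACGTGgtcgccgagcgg
ODC1 held 2 E-boxes in its window and each of the other 12 genes held 1. The end of the window was in a GENCODE transcript of the gene for 9 of the 13 genes, and not for ODC1. The first base of the E-box lay 5 bases before the RefSeq start in RRP9, 10 before it in UTP20 and 64 before it in LYAR, and at base 7 after the start in FBL.

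The 40 genes differed widely in level, from abundant nucleolar proteins to a methyltransferase gene with 24 to 108 counts per library. On the FPKM scale, which divides by transcript length, 37 of the 40 averaged at least 10 over the 4 libraries and the median of the means was 40.1. NPM1, an abundant nucleolar histone and ribosome chaperone (chr5:171387116-171411137, plus strand, hg38), had the highest level at 1315 FPKM in ΔOGT-ISS against 982 FPKM in WT at 24 h, and 1933 FPKM in ΔOGT-ISS against 2363 FPKM in WT at 48 h. NCL, the nucleolar phosphoprotein nucleolin, followed with 471 FPKM in ΔOGT-ISS against 354 FPKM in WT at 24 h, and 736 FPKM in ΔOGT-ISS against 722 FPKM in WT at 48 h. NPM1 and NCL did not overlap in any library, and both lay above the other 38 genes in mean FPKM. MYC, at 56.2 FPKM in ΔOGT-ISS against 35.5 FPKM in WT at 24 h and 80.1 FPKM in ΔOGT-ISS against 56.7 FPKM in WT at 48 h, stood in the upper part of the order between UBTF and WDR43, 2 neighbours whose ranges over the libraries overlap that of MYC. Its partner MAX had 36.7 FPKM in ΔOGT-ISS against 36.5 FPKM in WT at 24 h, and 26.9 FPKM in ΔOGT-ISS against 32.9 FPKM in WT at 48 h. The repressor gene MXD1 had the second lowest mean of the set, 8.18 FPKM. NOP2, a methyltransferase of the large subunit rRNA, was lowest in all 4 libraries with 1.41 FPKM in ΔOGT-ISS against 1.64 FPKM in WT at 24 h, and 0.802 FPKM in ΔOGT-ISS against 1.14 FPKM in WT at 48 h. An overlapping gene on the same strand covers 54.4% of the exonic bases of NOP2, so its counts are uncertain.

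**Figure D1:**
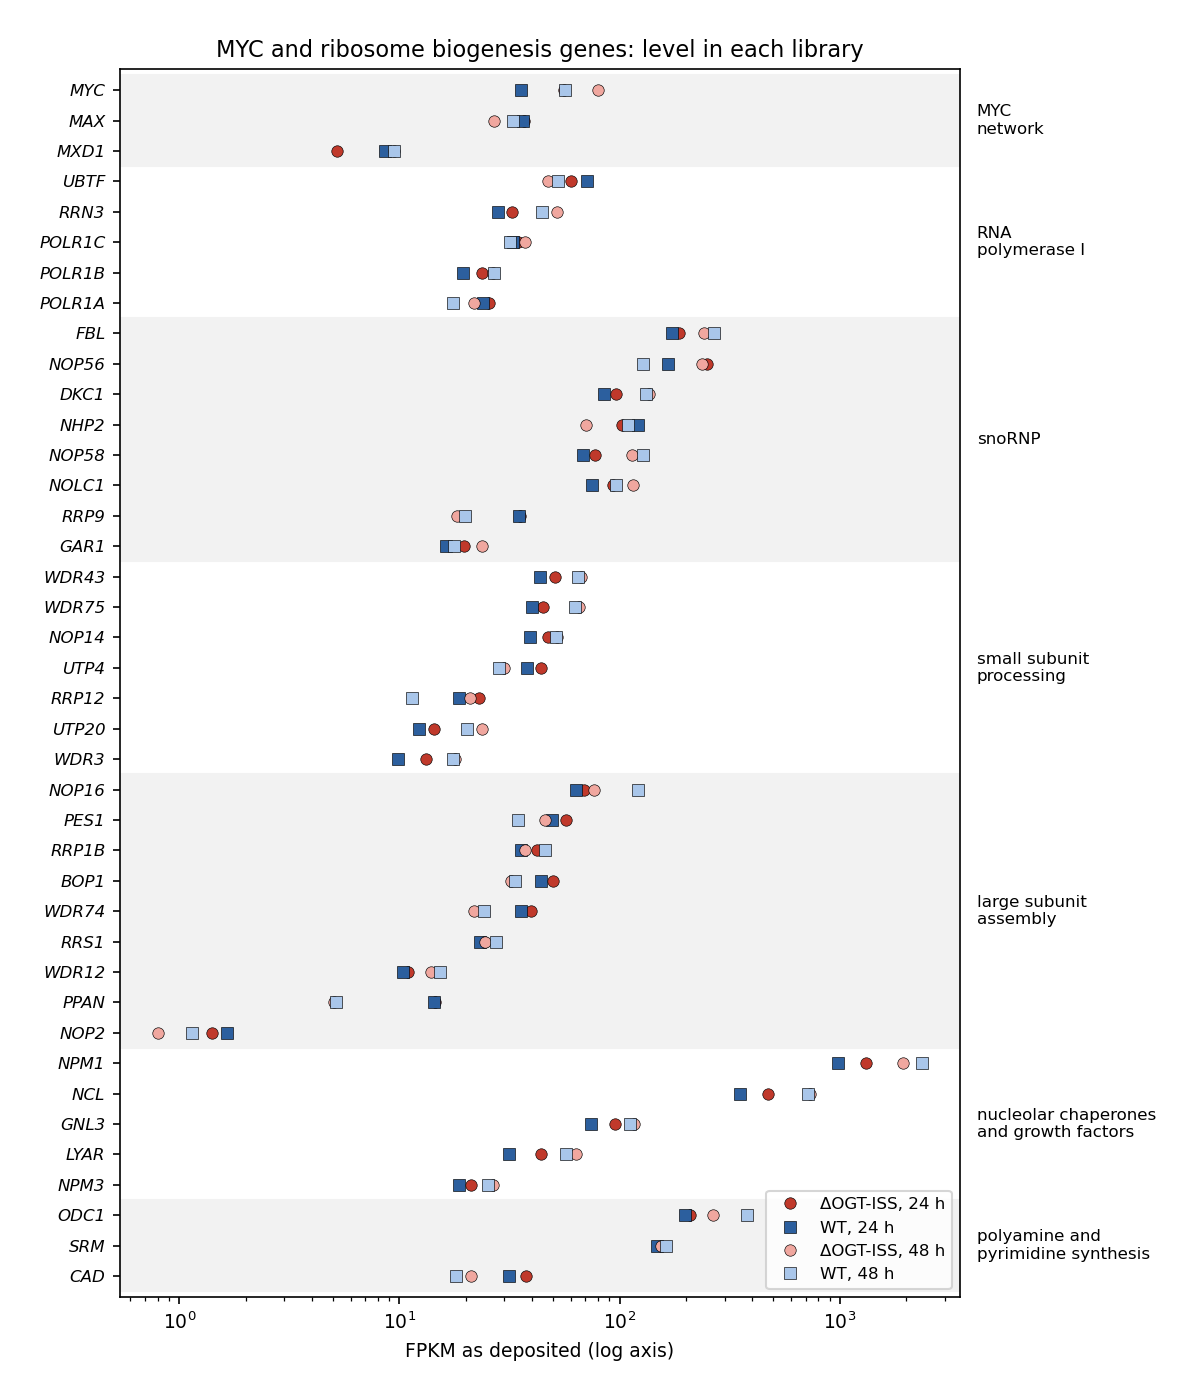
Level of each of the 40 genes in each library, in FPKM on a log axis, with genes grouped by role and sorted by mean within a role. Circles are ΔOGT-ISS and squares WT, dark at 24 h and pale at 48 h, and each point is 1 library. NPM1 lies between 982 and 2363 FPKM and NOP2 between 0.802 and 1.64 FPKM.

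Together the 40 genes took 0.935% of all counts in ΔOGT-ISS and 0.772% in WT at 24 h, and 1.17% in ΔOGT-ISS and 1.21% in WT at 48 h. NPM1 and NCL alone made up 0.358% in ΔOGT-ISS and 0.268% in WT at 24 h, and 0.544% in ΔOGT-ISS and 0.595% in WT at 48 h. The other 38 genes took 0.576% in ΔOGT-ISS and 0.503% in WT at 24 h, and 0.629% in ΔOGT-ISS and 0.619% in WT at 48 h. The share was thus higher in ΔOGT-ISS than in WT at 24 h, with and without NPM1 and NCL, and close between the lines at 48 h. With 1 library per line and time these shares have no replicate check.

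The first comparison asks whether the edited line expressed MYC and ribosome biogenesis genes at another level than WT. None of the 40 genes passed the test, and the genes with the largest differences were MYC, NOP56 and RRP12, which were higher in ΔOGT-ISS at both times, and NHP2 and MXD1, which were lower. The test was edgeR's quasi-likelihood test with terms for line and IL-2 time, with Benjamini-Hochberg adjustment over all genes tested and a threshold of 0.05. It called 0 of the 40 genes, where it called 81 of 17492 genes, or 0.463%. Without adjustment, edgeR's p was below 0.05 for 4 of the 40 (NOP56, MYC, RRP12 and NHP2), beside 1589 of all 17492 genes tested, a similar share. The lowest adjusted p of the set was 0.159. DESeq2 called 1 of the 40, NOP56, where it called 303 genes or 1.73%. The median log2 fold change (ΔOGT-ISS over WT) was 0.08 for the 40 genes and 0.02 for all genes tested, and the SE of a gene's log2 fold change had a median of 0.17 in the set. With 1 residual degree of freedom, a p that misses the threshold does not show that the lines were alike.

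In the MYC network, MYC was at 206 CPM in ΔOGT-ISS against 133 CPM in WT at 24 h, and at 295 CPM in ΔOGT-ISS against 217 CPM in WT at 48 h. Both ΔOGT-ISS libraries were above the WT library of the same time, but ΔOGT-ISS at 24 h was below WT at 48 h. The ratio of ΔOGT-ISS over WT was 1.55 (1.48–1.62) at 24 h and 1.36 (1.29–1.43) at 48 h. Ranges in brackets here and below are exact 95% intervals for a ratio of single libraries and cover counting error only. In the edgeR fit the log2 fold change of MYC was 0.54 (SE 0.16) with an adjusted p of 0.275. MXD1, which competes with MYC for MAX, was at 28.4 CPM in ΔOGT-ISS against 48.1 CPM in WT at 24 h, and at 52.0 CPM in ΔOGT-ISS against 53.9 CPM in WT at 48 h. Its ratio was 0.590 (0.539–0.645) at 24 h and 0.964 (0.858–1.08) at 48 h, so the ΔOGT-ISS library at 24 h stood apart from the other three. The edgeR log2 fold change of MXD1 was -0.41 (SE 0.21) with an adjusted p of 0.663. MAX was at 72.7 CPM in ΔOGT-ISS against 73.8 CPM in WT at 24 h, and at 53.6 CPM in ΔOGT-ISS against 68.0 CPM in WT at 48 h. Its ratio was 0.986 (0.925–1.05) at 24 h and 0.788 (0.707–0.879) at 48 h, with an edgeR log2 fold change of -0.18 (SE 0.17) and an adjusted p of 0.891.

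The largest line difference of the set belonged to NOP56, a core protein of the box C/D snoRNPs that guide rRNA methylation (chr20:2652145-2658393, plus strand, hg38). NOP56 was at 472 CPM in ΔOGT-ISS against 322 CPM in WT at 24 h, and at 448 CPM in ΔOGT-ISS against 253 CPM in WT at 48 h. Both ΔOGT-ISS libraries lay above both WT libraries, and the ratio was 1.47 (1.43–1.51) at 24 h and 1.77 (1.69–1.86) at 48 h. The log2 fold change was 0.69 (SE 0.16) with an adjusted p of 0.159 in edgeR. In DESeq2 the adjusted p of NOP56 was 0.0200, and over 19 alternative settings it ran from 0.0200 to 1.00 with log2 fold changes from 0.51 to 0.86, and DESeq2 was the one setting that called it. Its partners in the same particle had smaller ratios. FBL, the methyltransferase of the particle, had ratios of 1.05 (1.01–1.09) at 24 h and 0.867 (0.825–0.911) at 48 h, and NOP58 had 1.11 (1.06–1.16) at 24 h and 0.854 (0.809–0.901) at 48 h. The differences between these genes were not tested.

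The box H/ACA snoRNPs, which guide the change of uridine to pseudouridine, showed no common direction. NHP2 was at 79.3 CPM in ΔOGT-ISS against 94.9 CPM in WT at 24 h, and at 54.4 CPM in ΔOGT-ISS against 87.7 CPM in WT at 48 h. Both ΔOGT-ISS libraries lay below both WT libraries for NHP2, with ratios of 0.836 (0.789–0.886) at 24 h and 0.621 (0.560–0.688) at 48 h. Its edgeR log2 fold change was -0.47 (SE 0.17) with an adjusted p of 0.439, and exons of a gene on the opposite strand cover 27.4% of its exonic bases. GAR1 had ratios of 1.18 (1.04–1.34) at 24 h and 1.28 (1.06–1.55) at 48 h, and DKC1, the pseudouridine synthase, had 1.10 (1.06–1.14) at 24 h and 0.986 (0.941–1.03) at 48 h. NOLC1, a nucleolar chaperone of snoRNPs, had 1.22 (1.18–1.26) at 24 h and an interval of 1.10 to 1.20 at 48 h. RRP9, the protein of the U3 snoRNP, had 0.986 (0.916–1.06) at 24 h and 0.876 (0.749–1.03) at 48 h, intervals that include 1.

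Among the small subunit processing factors, all 7 genes were higher in ΔOGT-ISS at 24 h, with log2 ratios from 0.14 to 0.38, and 4 of 7 were higher in it at 48 h. RRP12, a repeat protein of pre-ribosome maturation and export, was at 99.9 CPM in ΔOGT-ISS against 82.9 CPM in WT at 24 h, and at 91.2 CPM in ΔOGT-ISS against 51.4 CPM in WT at 48 h. Its ΔOGT-ISS libraries were the highest pair, and the WT library at 48 h was the lowest of the 4. The ratio of RRP12 was 1.21 (1.14–1.28) at 24 h and 1.78 (1.60–1.97) at 48 h, with an edgeR log2 fold change of 0.54 (SE 0.19) and an adjusted p of 0.377. UTP20 was the other gene of this group whose interval lay above 1 at both times, with 1.14 (1.08–1.20) at 24 h and 1.12 (1.06–1.19) at 48 h. WDR43, the most abundant of the 7 in FPKM, had 1.14 (1.09–1.19) at 24 h and 0.991 (0.937–1.05) at 48 h.

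The 5 RNA polymerase I genes had log2 ratios of ΔOGT-ISS over WT from -0.26 to 0.26 at 24 h and from -0.21 to 0.26 at 48 h. UBTF, the upstream binding factor that opens rDNA for transcription, was at 285 CPM in ΔOGT-ISS against 342 CPM in WT at 24 h, and at 224 CPM in ΔOGT-ISS against 259 CPM in WT at 48 h. Its ratios of 0.834 (0.809–0.859) at 24 h and 0.865 (0.819–0.913) at 48 h were both below 1, and the edgeR adjusted p was 0.790 for a log2 fold change of -0.24 (SE 0.15). The initiation factor gene RRN3 had 1.13 (1.07–1.19) at 24 h and 1.13 (1.06–1.21) at 48 h. The gene of the catalytic subunit, POLR1A, had 1.05 (1.01–1.08) at 24 h and 1.20 (1.14–1.27) at 48 h.

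In large subunit assembly, 7 of 9 genes were higher in ΔOGT-ISS at 24 h and 1 of 9, PES1, was higher in it at 48 h. PES1 and BOP1 encode subunits of the PeBoW complex, with WDR12. PES1 had ratios of 1.12 (1.07–1.18) at 24 h and 1.27 (1.16–1.39) at 48 h, whereas BOP1 had 1.10 (1.05–1.16) at 24 h and 0.920 (0.837–1.01) at 48 h and WDR12 had 1.03 (0.975–1.10) at 24 h and 0.874 (0.809–0.945) at 48 h. NOP16, a nucleolar protein of large subunit precursors, was at 59.7 CPM in ΔOGT-ISS against 56.1 CPM in WT at 24 h, and at 67.1 CPM in ΔOGT-ISS against 110.1 CPM in WT at 48 h. The WT library at 48 h stood above the other three for NOP16, and its ratio at 48 h was 0.610 (0.556–0.668).

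The line difference of the set was not the same at the 2 IL-2 times. At 24 h, 33 of the 40 genes had a log2 ratio of ΔOGT-ISS over WT above 0, against 50.5% of all genes tested. At 48 h, 15 of the 40 did, against 52.1% of all genes. The median log2 ratio of the 40 genes was 0.15 at 24 h and -0.03 at 48 h, where that of all genes was 0.00 at 24 h and 0.02 at 48 h. The counting interval lay above 1 for 27 genes and below 1 for 3 at 24 h, and above 1 for 10 and below 1 for 13 at 48 h. These intervals cover counting error only, so an abundant gene can exclude 1 at a ratio near 1, as NCL did at 48 h with 0.981 (0.966–0.996). Of the 40 genes, 15 were higher in ΔOGT-ISS at both times and 7 were lower in it at both. The interval counts and the counts at both times were not made over all genes tested, so they have no background share. The log2 ratio was larger at 24 h than at 48 h in 31 of the 40 (77.5%), against 47.8% of all genes tested. With 1 library per line and time, a difference between the times in the line effect has no test of its own, because the fit takes it as error. Genes of 1 library are also not independent of each other.

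Among the nucleolar chaperones and growth factors, all 5 genes were higher in ΔOGT-ISS at 24 h and 2 of 5 were higher in it at 48 h. NPM1 was at 1710.0 CPM in ΔOGT-ISS against 1305 CPM in WT at 24 h, and at 2526 CPM in ΔOGT-ISS against 3212 CPM in WT at 48 h. Its ratio was 1.31 (1.29–1.33) at 24 h and 0.787 (0.774–0.799) at 48 h, so the lines changed places. NCL was at 1821 CPM in ΔOGT-ISS against 1401 CPM in WT at 24 h, and at 2862 CPM in ΔOGT-ISS against 2917 CPM in WT at 48 h, with ratios of 1.30 (1.28–1.32) and 0.981 (0.966–0.996). ODC1, the first enzyme of polyamine synthesis and a classical MYC target, was at 508 CPM in ΔOGT-ISS against 493 CPM in WT at 24 h, and at 652 CPM in ΔOGT-ISS against 963 CPM in WT at 48 h. Its ratio was 1.03 (1.01–1.06) at 24 h and 0.677 (0.657–0.697) at 48 h. The counts of 49 annotated pseudogenes of NPM1 summed to 526 in ΔOGT-ISS and 274 in WT at 24 h and to 1168 in ΔOGT-ISS and 1275 in WT at 48 h, and how reads shared with them were counted is not given in the sources used here.

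The second comparison sets IL-2 given 24 h before extraction against IL-2 given 48 h before it. At 24 h, 16 of the 40 genes differed past the same test: 12 fell, among them MYC, NPM1, NCL, FBL, NOP58 and ODC1, and 4 rose, PPAN, RRP9, CAD and WDR74. The 12 that fell were 30% of the set beside 10.9% of all genes tested that fell, and the 4 that rose were 10% of the set beside 15.0% of all genes that rose. The median log2 fold change (24 h over 48 h) was -0.31 in the set and 0.07 over all genes tested. Without a filter on low counts, 10 genes passed and the split turned to 9 higher and 1 lower, while the median of all genes moved to 0.29. Fits with 1 library left out hold 1 library at one of the times and lack the line term. In such fits calls dropped over the whole table and in the set, and not by the same share. The most calls in any such fit were a smaller part of the main calls in the set than over the table. Because line and time mix in these fits, they cannot show which libraries the calls of the set rest on. After thinning both 24 h libraries to the total of the smallest one, 17 to 20 of the 40 passed over 5 draws. Over all genes, 2386 to 2620 rose and 1991 to 2428 fell in these draws.

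MYC was lower at 24 h, with 206 CPM at 24 h and 295 CPM at 48 h in ΔOGT-ISS, and 133 CPM at 24 h and 217 CPM at 48 h in WT. The ratio of 24 h over 48 h was 0.698 (0.669–0.729) in ΔOGT-ISS and 0.612 (0.580–0.646) in WT. Its log2 fold change was -0.61 (SE 0.16) with an edgeR adjusted p of 0.0252, and it passed in 13 of 19 alternative settings, with log2 fold changes from -0.99 to -0.31. MXD1 had 28.4 CPM at 24 h and 52.0 CPM at 48 h in ΔOGT-ISS, and 48.1 CPM at 24 h and 53.9 CPM at 48 h in WT, with an edgeR adjusted p of 0.109. MAX had an edgeR adjusted p of 0.263 and a log2 fold change of 0.28 (SE 0.17).

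With TMM normalization alone, NPM1 and NCL had the largest falls of the set, and with the offsets for GC content and length described below NPM1 did not pass. NPM1 was at 1710.0 CPM at 24 h and 2526 CPM at 48 h in ΔOGT-ISS, and at 1305 CPM at 24 h and 3212 CPM at 48 h in WT. Both 24 h libraries lay below both 48 h libraries, with ratios of 0.677 (0.667–0.687) in ΔOGT-ISS and 0.406 (0.400–0.413) in WT and a log2 fold change of -0.93 (SE 0.22, edgeR adjusted p of 0.0188). NCL was at 1821 CPM at 24 h and 2862 CPM at 48 h in ΔOGT-ISS, and at 1401 CPM at 24 h and 2917 CPM at 48 h in WT. Its ratios were 0.636 (0.628–0.645) in ΔOGT-ISS and 0.480 (0.473–0.488) in WT, with a log2 fold change of -0.86 (SE 0.19, edgeR adjusted p of 0.0148). LYAR, a nucleolar zinc finger protein of cell growth, also fell, with 67.0 CPM at 24 h and 97.3 CPM at 48 h in ΔOGT-ISS and 49.3 CPM at 24 h and 91.5 CPM at 48 h in WT. The remaining chaperone genes, GNL3 (nucleostemin) and NPM3, had log2 fold changes of -0.46 and -0.41 that did not pass.

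In the snoRNP group, 3 core proteins fell and RRP9 rose. NOP58 was at 152 CPM at 24 h and 225 CPM at 48 h in ΔOGT-ISS, and at 137 CPM at 24 h and 264 CPM at 48 h in WT, a log2 fold change of -0.75 (SE 0.17, edgeR adjusted p of 0.0151). FBL was at 206 CPM at 24 h and 270.5 CPM at 48 h in ΔOGT-ISS, and at 197 CPM at 24 h and 312 CPM at 48 h in WT. Its log2 fold change of -0.53 (SE 0.16) was the smallest that passed, with an edgeR adjusted p of 0.0475. DKC1 fell with a log2 fold change of -0.59 (SE 0.16). RRP9 was at 53.8 CPM at 24 h and 27.8 CPM at 48 h in ΔOGT-ISS, and at 54.5 CPM at 24 h and 31.7 CPM at 48 h in WT. Both 24 h libraries of RRP9 lay above both 48 h libraries, and its log2 fold change was 0.87 (SE 0.17, edgeR adjusted p of 0.00947). NOP56, the gene with the largest line difference, had a log2 fold change between times of 0.21 (SE 0.16) that did not pass.

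Of the 7 small subunit processing genes, 3 fell and none rose, with UTP4 at 0.47 and RRP12 at 0.41 on the log2 scale the 2 positive values, neither past the test. UTP20, a scaffold protein of the small subunit processome, was at 127 CPM at 24 h and 211 CPM at 48 h in ΔOGT-ISS, and at 112 CPM at 24 h and 189 CPM at 48 h in WT. WDR3, a protein of the same assembly, was at 129.7 CPM at 24 h and 177 CPM at 48 h in ΔOGT-ISS, and at 99.6 CPM at 24 h and 180.2 CPM at 48 h in WT. The log2 fold changes were -0.74 (SE 0.15, edgeR adjusted p of 0.0110) for UTP20, -0.65 (SE 0.17, edgeR adjusted p of 0.0271) for WDR3 and -0.62 (SE 0.16) for WDR75. WDR43 missed the threshold with an edgeR adjusted p of 0.0506. Among the RNA polymerase I genes RRN3 alone of the 5 passed, with 118 CPM at 24 h and 192 CPM at 48 h in ΔOGT-ISS and 105 CPM at 24 h and 169 CPM at 48 h in WT. The ratio of RRN3 was 0.618 in ΔOGT-ISS and 0.619 in WT, and 4 annotated pseudogenes of RRN3 held between 423 and 1109 counts per library.

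Large subunit assembly held the largest rise. PPAN, a homologue of a yeast large subunit assembly factor (chr19:10106289-10111634, plus strand, hg38), was at 33.0 CPM at 24 h and 11.5 CPM at 48 h in ΔOGT-ISS, and at 33.2 CPM at 24 h and 12.2 CPM at 48 h in WT. The ratio was 2.88 (2.39–3.48) in ΔOGT-ISS and 2.72 (2.26–3.30) in WT, and the log2 fold change was 1.48 (SE 0.20, edgeR adjusted p of 0.00235). Exons of the read-through gene with P2RY11 and of P2RY11 cover 59.8% of the exonic bases of PPAN on the same strand, so which transcript gave these counts is uncertain. WDR74, a WD repeat protein of pre-60S particles, rose with a log2 fold change of 0.69 (SE 0.18), at 47.5 CPM at 24 h and 26.2 CPM at 48 h in ΔOGT-ISS and 43.8 CPM at 24 h and 30.4 CPM at 48 h in WT. Exons of other genes, on either strand, cover 22.3% of the exonic bases of WDR74, 20.0% of those of NOP16 and 17.1% of those of WDR3. None of the 9 genes of this group fell past the test, and NOP16 had a log2 fold change of -0.57 (SE 0.21) with an edgeR adjusted p of 0.0873.

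The 3 enzymes of polyamine and pyrimidine synthesis went different ways. CAD, which carries the first steps of pyrimidine synthesis, rose and was at 269.6 CPM at 24 h and 153 CPM at 48 h in ΔOGT-ISS, and at 232 CPM at 24 h and 136 CPM at 48 h in WT (log2 fold change 0.79, SE 0.15, edgeR adjusted p of 0.00876). ODC1 fell and was at 508 CPM at 24 h and 652 CPM at 48 h in ΔOGT-ISS, and at 493 CPM at 24 h and 963 CPM at 48 h in WT (log2 fold change -0.66, SE 0.20, edgeR adjusted p of 0.0411). SRM, spermidine synthase, had a log2 fold change of -0.09 (SE 0.16) that did not pass.

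The direction between times went with the GC content of the transcripts. The 4 genes that rose had transcripts of 57.7% to 63.2% GC and the 12 that fell of 39.3% to 57.9%, with medians of 60.0% for those that rose and 42.9% for those that fell. Over the 16751 tested genes with a known transcript, Spearman's rho between GC content and the log2 fold change between times was 0.47, a description across genes that share the 4 libraries, and for the line log2 fold change it was -0.03. The median log2 fold change between times was -0.33 for genes below 45% GC, 0.09 from 45% to 55% and 0.86 at 55% and above. When offsets for GC content and length were added to the fit, 10 of the 40 genes passed and all 10 fell, beside 8.61% of all genes that fell and 5.77% that rose. The median of the set stayed at -0.31, beside -0.02 for all genes with offsets. MYC, FBL, DKC1, NCL and ODC1 fell in both fits, with log2 fold changes under offsets of -0.99 for MYC, -1.15 for FBL, -0.60 for DKC1, -0.97 for NCL and -0.88 for ODC1. BOP1, NOP16, RRS1, NPM3 and SRM fell in the fit with offsets alone. The largest falls with offsets were those of SRM (-1.17) and FBL. None of the 4 genes that rose, PPAN (0.38), CAD (0.18), WDR74 (-0.03) and RRP9 (-0.00078), passed with offsets. Of the 12 that fell, 7 did not pass with offsets: NPM1 (-0.64), NOP58 (-0.52), RRN3 (-0.48), LYAR (-0.48), UTP20 (-0.41), WDR75 (-0.39) and WDR3 (-0.25). Whether the GC content or the IL-2 time underlies the difference of a given gene was not tested. The 24 h and 48 h libraries also differ in depth and replicate number. IL-2 time and any other difference between these pairs of libraries therefore cannot be told apart.

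**Figure D2:**
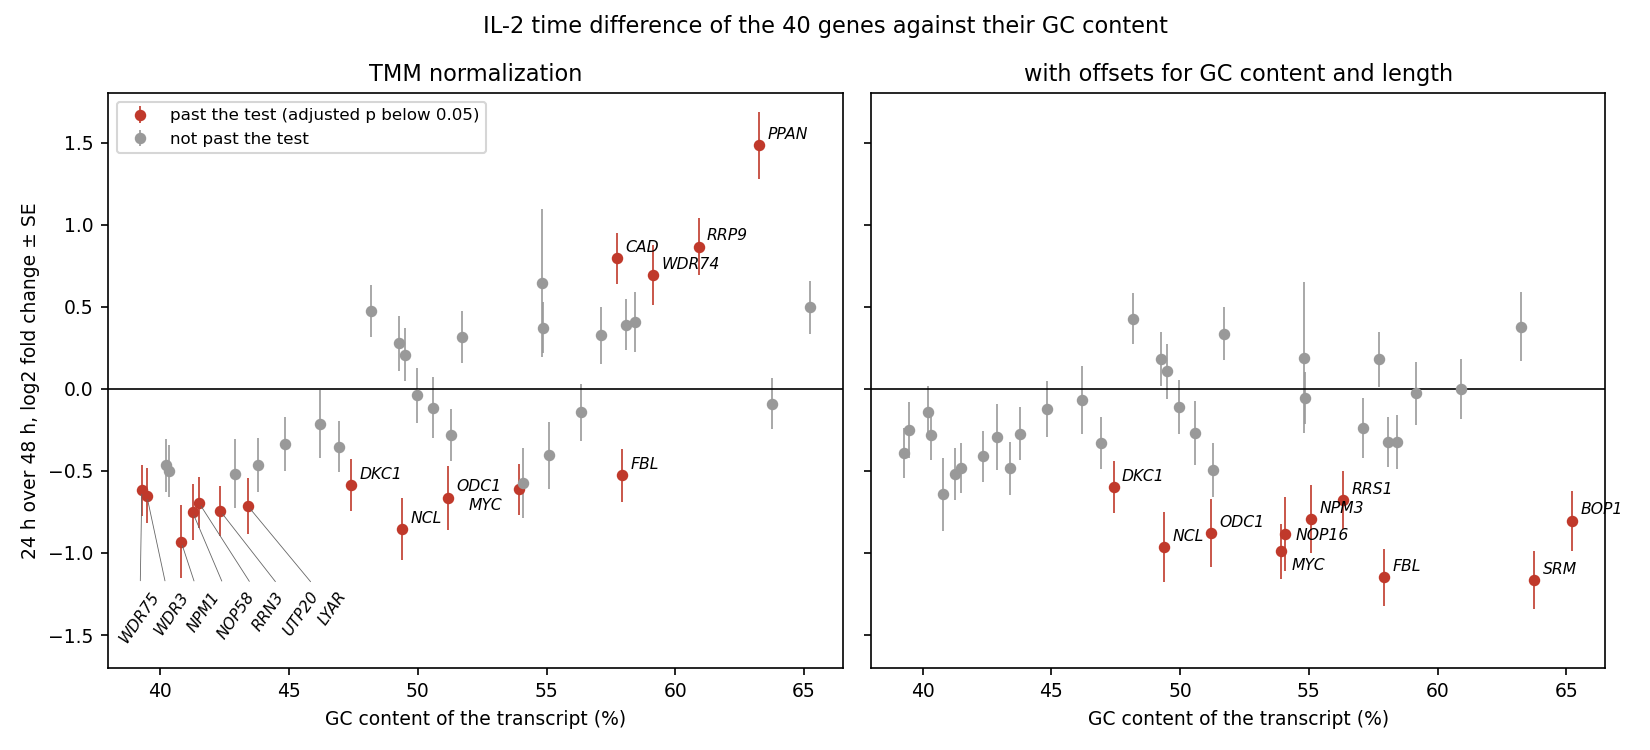
Log2 fold change of 24 h over 48 h with its SE for each of the 40 genes against the GC content of its transcript, with TMM normalization (left) and with offsets for GC content and length (right). Red points passed edgeR's test at an adjusted p below 0.05. Left, 4 genes at 57.7% GC or above rose and 12 fell, and right, 10 fell and none rose.

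Within each line, 25 of the 40 genes (62.5%) had a ratio of 24 h over 48 h below 1, where 49.0% of all genes did in ΔOGT-ISS and 46.5% in WT. The median log2 ratio was -0.17 in ΔOGT-ISS and -0.40 in WT, beside 0.02 in ΔOGT-ISS and 0.09 in WT over all genes. For the 12 genes that fell, ratios ran from 0.602 to 0.780 in ΔOGT-ISS and from 0.406 to 0.632 in WT, and 11 of the 12 were further from 1 in WT. For the 4 that rose, ratios ran from 1.77 to 2.88 in ΔOGT-ISS and from 1.44 to 2.72 in WT, all 4 nearer to 1 in WT. The 12 and the 4 were picked by the test between times on these same values. The counts by line were not made over all genes that fell or rose, so they have no background share. These are the same 4 libraries that gave the line ratios, so this is another view of the shift in line ratio between times and not a second observation of it.

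Of the 13 genes with an E-box in the promoter window, RRP9 rose at 24 h, FBL, LYAR, ODC1 and UTP20 fell, and 8 did not pass. Among the 20 genes with a window and no E-box, 3 rose, 6 fell and 11 did not pass. No difference between these groups was tested.

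Introns of 9 of the 40 genes host 27 annotated snoRNAs, among them 5 in NOP56, 4 in NOP58 and 6 in GNL3. These hosted snoRNAs were sparsely counted, with 262 counts in ΔOGT-ISS and 196 in WT at 24 h and 168 in ΔOGT-ISS and 215 in WT at 48 h over all 27. The 5 snoRNAs in NOP56 summed to 12 counts in ΔOGT-ISS and 8 in WT at 24 h, and to 4 in ΔOGT-ISS and 0 in WT at 48 h, too few to set beside the host gene.

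The rest of the pathway was described from lists of genes outside the 40. By line, 0 genes of the lists passed the edgeR test: MYC and MAX network (0 of 15 tested, 2 unadjusted), RNA polymerase I (0 of 20, 1 unadjusted), small subunit processing (0 of 46, 2 unadjusted), large subunit assembly (0 of 45, 4 unadjusted), exosome (0 of 14, 0 unadjusted), polyamines (0 of 14, 1 unadjusted) and nucleotide synthesis (0 of 25, 2 unadjusted). DESeq2 called 2 genes of the MYC and MAX network (MXI1 and MGA), 1 of large subunit assembly (RSL24D1) and 0 of the other 5 lists. Over all genes tested, edgeR called 0.463% and DESeq2 1.73%, and 1589 of 17492 had an unadjusted edgeR p below 0.05. At 24 h 50.5% of all genes tested were higher in ΔOGT-ISS, and at 48 h 52.1% were. In small subunit processing 38 of 46 further genes were higher in ΔOGT-ISS at 24 h and 16 of 46 at 48 h, and in large subunit assembly 36 of 45 were higher at 24 h and 17 of 45 at 48 h. For the RNA exosome, which trims rRNA precursors, the counts were 10 of 14 at 24 h and 2 of 14 at 48 h, and for nucleotide synthesis they were 19 of 25 at 24 h and 9 of 25 at 48 h. The other MYC and MAX network genes had 9 of 15 at both times. Further RNA polymerase I genes had 13 of 20 at 24 h and 8 of 20 at 48 h. Further polyamine genes had 7 of 14 at 24 h and 3 of 14 at 48 h.

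Between IL-2 times, the further genes split in direction within most lists, beside 15.0% of all genes tested that rose and 10.9% that fell (5.77% and 8.61% with offsets for GC content and length). In the MYC and MAX network, the MXD relatives moved apart: MXI1 fell with a log2 fold change of -3.22 (SE 0.28), while MXD3 rose by 2.57 (SE 0.29) and MXD4 rose by 1.77 (SE 0.29). MXI1 was at 12.1 CPM at 24 h and 78.8 CPM at 48 h in ΔOGT-ISS, and at 3.74 CPM at 24 h and 52.3 CPM at 48 h in WT. With offsets MXI1 fell by 3.05 and MXD3 rose by 1.11 on the log2 scale, and MXD4, at 0.60, did not pass. In that list 4 of 15 rose and 1 fell, and in RNA polymerase I 5 of 20 rose and 6 fell, with POLR1G at 1.75 (SE 0.33), TAF1C at 1.47 (SE 0.18) and POLR2E at 1.17 (SE 0.16) on the log2 scale. With offsets 1 of the 20 rose (POLR1G) and 5 fell, and TAF1C (0.51) and POLR2E (0.35) did not pass. In small subunit processing 5 of 46 rose and 14 fell, led by UTP3, a processome component, at -1.16 (SE 0.18). TBL3 at 1.05 (SE 0.20) and TSR3 at 0.96 (SE 0.18) rose there. In large subunit assembly 9 of 45 rose and 10 fell, with SENP3, a nucleolar SUMO protease, at 2.26 (SE 0.30), RSL24D1 at -1.41 (SE 0.17) and NOC3L at -1.31 (SE 0.18). With offsets, 0 of the small subunit genes rose and 8 fell, and 2 of the large subunit genes rose and 8 fell.

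In the exosome 1 of 14 genes rose (EXOSC6, 0.93, SE 0.17) and 4 fell, led by MPHOSPH6 at -1.30 (SE 0.18) and EXOSC8 at -1.05 (SE 0.18) on the log2 scale. With offsets 1 rose and 2 fell. Of 14 further polyamine genes 3 rose and 2 fell. SAT1, which acetylates polyamines for export and breakdown, fell by 2.65 (SE 0.29) on the log2 scale, whereas DOHH and DHPS, which make the hypusine of EIF5A from spermidine, rose by 2.03 (SE 0.21) and 1.46 (SE 0.40). With offsets neither DOHH (0.52) nor DHPS (0.85) passed, and 0 of the 14 rose and 2 fell. Of 25 nucleotide synthesis genes 3 rose and 4 fell, with thymidylate synthase TYMS at 1.19 (SE 0.16), the purine enzyme PFAS at 1.17 (SE 0.17) and the folate enzyme MTHFD1L at -1.0 (SE 0.17). With offsets 1 of the 25 rose (TYMS, 1.10) and 3 fell, and PFAS, at 0.47, did not pass. Of 14 RNA genes of ribosome biogenesis 7 were listed at 0 counts in every library and 7 were tested. Of the 7, 3 fell: SNORD3C at -5.29 (SE 0.44), SNORD13 at -4.05 (SE 0.21) and SNORD3A at -1.11 (SE 0.17). SNORD3A and SNORD3C are near-identical U3 copies, so the split of reads between them is uncertain.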

How the data were processed

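Total RNA from 4 NK-92 libraries was depleted of rRNA and made into libraries with a CORALL kit, per the labels' protocols. The authors deposited raw counts per Ensembl gene, as whole numbers without normalization, and FPKM values per gene with symbols and lengths. Per the submitters' processing notes, the tools were HISAT2 2.2.0, SAMtools 1.15.1 and featureCounts 2.0.1 and the build was hg38. The sources used here do not give the strand setting or how molecular identifiers and reads with several matches were handled, so counts of overlapping genes and near-identical copies are uncertain.

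The counts were tested with edgeR 4.0.16 in R 4.3.3 (filterByExpr with a minimum count of 10, TMM factors, terms for IL-2 time and line, quasi-likelihood F test, two-sided, Benjamini-Hochberg adjustment, threshold 0.05). The fit left 1 residual degree of freedom. Each SE was taken as the absolute log2 fold change over the root of F. Log2 ratios between single libraries used a prior count of 2, and their intervals (scipy 1.17.1) are exact conditional binomial at 95%. Positions, exons and transcript GC content came from GENCODE 29 and promoter windows from RefSeq. Offsets for GC content and length were fitted with mgcv 1.9.3. Alternatives were DESeq2 1.42.0, RLE, upper-quartile and library-size scaling, other filters, limma 3.58.1 on log2(FPKM + 1) and log2(FPKM + 0.1) from the deposited FPKM, thinning the 24 h libraries to 10889986 counts, a fit without the other term, and leaving out each library.

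The 40 genes, the lists and the tests were chosen with earlier results of these data known. Values in every library are given for MYC, MAX and MXD1, for up to 12 genes past the test per comparison by size, for the 3 largest line differences and for the gene with the highest FPKM per role. Other genes, with NHP2 among them, were named from the ranges shown, after their values were seen. From the other lists, up to 3 genes past the test were named.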

Additional observations from a re-analysis of the deposited data

Results flagged for a closer look

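For 6 of the 40 genes the ratio of ΔOGT-ISS over WT lay above 1 at 24 h and below 1 at 48 h, with counting intervals that exclude 1 at both times. The same count was not made over all genes tested. Whether the ratios differ between times was not tested, because each line and time has 1 library. NPM1 had a ratio of 1.31 at 24 h and 0.787 at 48 h. NCL had 1.30 at 24 h and 0.981 at 48 h. ODC1 had 1.03 at 24 h and 0.677 at 48 h. RRP1B, a nucleolar regulator of rRNA processing, had 1.16 at 24 h and 0.781 at 48 h. The box C/D snoRNP genes NOP58 and FBL had 1.11 and 1.05 at 24 h, and 0.854 and 0.867 at 48 h. No gene of the set showed the opposite pattern with intervals that exclude 1.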

How the results depend on the processing

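The number of genes called by line over the whole table (81) was 154 with RLE factors, 303 with DESeq2, 546 with no filter on low counts and 142 with offsets for GC content and length. It was 220 after thinning the 24 h libraries and 33 and 251 in 2 of 4 further draws, added after seeing the data. It was 0 without a term for the other factor (242 at an unadjusted p below 0.05) and 0 on log2 FPKM with limma at both pseudocounts (1618 with 1 and 1543 with 0.1 unadjusted). Leaving out 1 library at a time gave 0 to 13. Of the 40 genes, 1 passed by line with DESeq2 and 0 with any 1 library left out (0 unadjusted). By IL-2 time, 4535 genes and 16 of the 40 were called, and 2408 genes and 10 of the 40 with offsets, where the share of higher calls was 40.1% in place of 57.9%. Without a filter on low counts 10 of the 40 were called and 75.8% of all calls were higher. Leaving out 1 library at a time gave 570 to 3545 genes and 0 to 7 of the 40. These fits lack the other term, so line and time mix in them. With offsets the log2 fold change by time turned to -0.00078 for RRP9, -0.03 for WDR74, -0.32 for RRP12 and -0.06 for UBTF. The cause of these changes was not tested.

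The next counts cover the genes of the set named by the rule above, which leaves out NHP2. For these genes, 358 of 399 line values and 296 of 399 time values kept direction and side of the threshold. Among the rest, 40 line values and 6 time values turned sign. None of the line values that turned sign was past the test. For NPM1 the line log2 fold change turned to -0.02 with no filter, -0.09 without the other term, -0.0022 in thinning draw 2 and -0.03 with offsets. It turned to 0.01 for NOP58 with library size only, and to 0.0045 and 0.0050 with limma at pseudocounts 1 and 0.1. It turned to 0.04 for PPAN in draw 4, and for WDR74 to 0.0048 with library size only and 0.0036 in draw 5. With a library left out, line log2 fold changes ran from -0.40 to 0.02 for MAX, -0.86 to 0.03 for MXD1, -0.99 to 0.87 for PPAN, -0.60 to 0.70 for NPM1, -0.63 to 0.37 for RRP9, -0.32 to 0.74 for NCL, -0.27 to 0.64 for CAD, -0.48 to 0.46 for NOP58, -0.26 to 0.60 for UTP20, -0.16 to 0.73 for LYAR, -0.23 to 0.56 for RRN3, -0.50 to 0.34 for WDR74, -0.73 to 0.23 for ODC1, -0.23 to 0.62 for WDR3, -0.39 to 0.27 for FBL, -0.20 to 0.40 for WDR43 and -0.80 to 0.17 for NOP16. By time, NOP56 ran from -0.18 to 0.62. No paired analysis was possible because the replicate numbers stand for the IL-2 times, which are already a term of the fit.

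Precision is limited by 1 library per line and time and by the smaller 48 h libraries. Counting error alone was largest for NOP2, with a line ratio at 48 h of 0.674 (0.381 to 1.17).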
